A study of Rattus norvegicus with 90 samples.

Results

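ENSRNOT00000017174 is a single Ensembl transcript of 1579 bases, and it was picked by its identifier as 1 of the 40071 transcripts that each library table lists. It was singled out because earlier work on these same data put its level higher after exposure in renal cells. The renal values are therefore given as a description with no test, and tests were kept to hepatocytes and cardiomyocytes. The tables used here pair the transcript with no gene, since 0 of the genes in the reference table carried an Ensembl identifier, and nothing is said of its function. For the same reason the labelled cell types could not be checked against marker genes.

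Thioacetamide harms the liver only after it has been oxidised there, and thioacetamide-S-oxide is the first product of that oxidation, so cells given it do not have to make it themselves. Hepatocytes carry out most of the metabolism of foreign compounds, proximal tubular epithelial cells take filtered solutes back up from the urine and secrete many drugs into it, and cardiomyocytes are the contracting cells of the heart.

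Primary hepatocytes, renal tube epithelial cells and cardiomyocytes, all labelled as Sprague-Dawley rat, were given vehicle, named as maintenance medium in the labels with the product given for hepatocytes and renal cells only, or thioacetamide-S-oxide at a low or a high dose, for 9 or 24 h. The doses were 0.125 and 0.5 mM in renal tube epithelial cells, 0.5 and 1.5 mM in cardiomyocytes, and 0.025 and 0.125 mM in hepatocytes. Each of the 18 conditions had 5 poly-A-enriched RNA libraries, 90 in all. The renal cells and hepatocytes were bought cryopreserved, and no source used here says whether the libraries of a group came from separate cultures or donors, so that p-values measure the spread between these libraries, which may be technical.

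Estimated counts per library ran from 2993135 to 61897142, with a median of 27860604.5. Levels are given as CPM, which is the estimated count of the transcript scaled to a common total of estimated counts on transcripts. Outside 1 library the transcript had between 205 and 63762 counts, the fewest in renal vehicle cultures. That library, MS-183 of the hepatocyte vehicle group at 24 h, had 249303 counts on transcripts and 28 on this one. Those on transcripts were 8.33% of its estimated counts, against at least 84.08% in all other libraries. Its median correlation with the rest of its group was 0.267 (Pearson r of log2 CPM across transcripts). Library MS-145 of the renal cells (low dose, 24 h) and MS-158 and MS-172 of the cardiomyocytes (low dose, 9 and 24 h) also stood apart, with such correlations of 0.875 to 0.876. The estimated count of the transcript was a whole number in all 90 libraries, within a tolerance of 1e-06.

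In renal cells the transcript was at its lowest in vehicle cultures and higher in every treated library, at both doses and both times. At 9 h the 5 vehicle libraries held 19.5, 19.1, 16.8, 19.9 and 20.04 CPM. The low-dose libraries held 37.4, 43.2, 42.3, 43.8 and 42.9 CPM, and the high-dose libraries 162.9, 173.2, 164.3, 172.4 and 175.6 CPM. The 3 groups did not overlap, with means of 19.1 ± 1.32, 41.9 ± 2.57 and 169.7 ± 5.69 CPM (SD, n = 5 in each). On the log2 scale the low-dose level was above vehicle by 1.15 (standard error 0.06) and the high-dose level by 3.18 (standard error 0.04).

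At 24 h the renal vehicle level was close to that at 9 h, at 22.4, 19.1, 20.8, 21.2 and 16.7 CPM, while most treated libraries were higher than at 9 h. The low-dose libraries held 90.1, 93.9, 102.3, 69.8 and 35.1 CPM and the high-dose libraries 341, 282, 374, 303 and 365 CPM. Again no group overlapped another, although the lowest low-dose library, MS-145, lay well under the other 4. The low-dose level was above vehicle by 2.03 on the log2 scale (standard error 0.16), or by 2.15 (standard error 0.09) without MS-145. With the high dose the difference was 3.995 (standard error 0.09), a 15.9-fold higher level. MS-145 had 19227 transcripts detected against at least 21892 in the rest of its group, and the part of this in its value was not tested. High-dose cultures stood above low-dose cultures by 2.03 (standard error 0.04) on the log2 scale at 9 h and by 1.96 (standard error 0.16) at 24 h. Vehicle cultures at 24 h were above those at 9 h by 0.16 (standard error 0.07), with overlapping values.

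**Figure D1:**
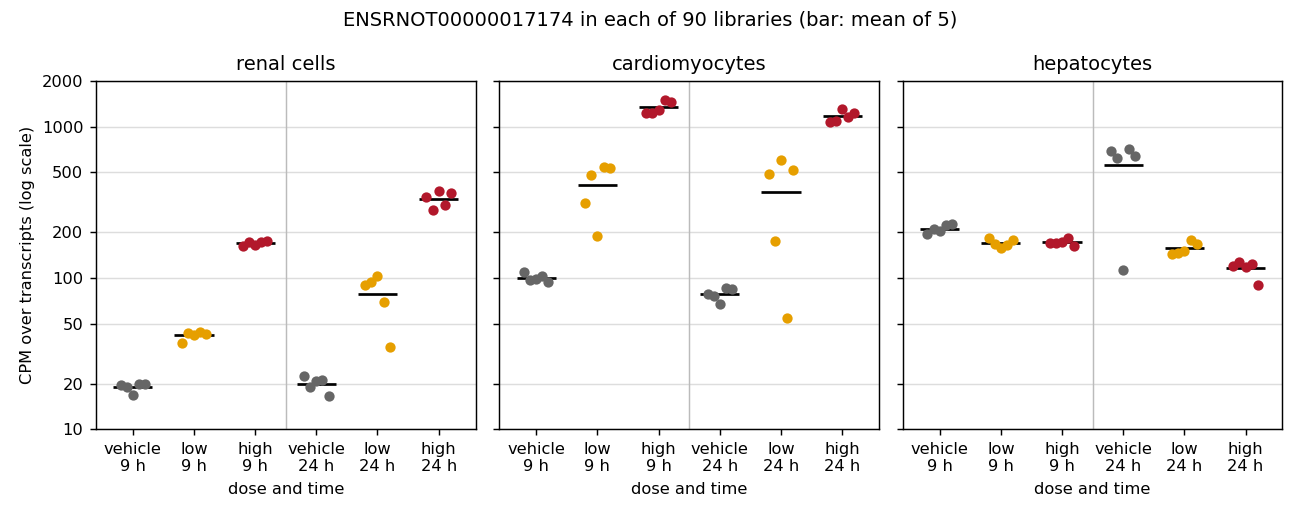
CPM of ENSRNOT00000017174 (y axis, log scale) in each of the 90 libraries, by dose and time (x axis), with a panel for each cell type; each point is a library and each bar the mean of 5. Renal cells run from 16.7 CPM in a vehicle library to 374 CPM with the high dose at 24 h, treated cardiomyocytes stand above vehicle apart from library MS-174 at 54.8 CPM, and treated hepatocytes stand below all vehicle libraries of their time apart from MS-183 at 112.3 CPM.

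These renal differences are set beside those of all other transcripts only as a background, since the transcript was chosen there. A transcript is called here when its Benjamini-Hochberg adjusted p from edgeR is at most 0.05 and its natural-log fold change at least 0.41 in size. At 9 h the share of transcripts called higher than in vehicle was 2.28% (low dose) and 8.16% (high dose). At 24 h it was 0.0452%, or 8 of 17684 transcripts, with the low dose and 12.0% with the high dose. Between the doses, 6.23% were called higher at 9 h and 8.38% at 24 h. The groups lay entirely apart from vehicle in the same direction for 10.3% and 21.3% of transcripts at 9 h (low and high dose) and for 0.724% and 23.7% at 24 h, and the high dose lay apart above the low dose for 16.7% and 20.3%. By size of log2 fold change against vehicle the transcript came 215th (low) and 50th (high) from the top at 9 h, and 73rd and 46th at 24 h. In such bulk libraries more RNA of a transcript in each cell and more cells that hold it cannot be told apart.

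Cardiomyocytes, which the reason for the choice of the transcript does not name, also held more of it after exposure. The choice was made with earlier results of these data known. Whether values of cardiomyocytes or hepatocytes had a part in it is not known, so the tests in these cells may not be independent of it. The cardiomyocyte vehicle libraries at 9 h held 109.8, 96.9, 98.6, 102.25 and 94.4 CPM. The low dose gave 312, 482, 188 (MS-158), 539.8 and 529.8 CPM and the high dose 1233, 1222, 1292, 1493 and 1448 CPM. No treated library reached down to a vehicle library, and the high dose lay entirely above the low dose. The low dose raised the level by 2.07 on the log2 scale (standard error 0.18, edgeR quasi-likelihood test with Benjamini-Hochberg adjustment, adjusted p = 0.000332), where 1.28% of transcripts were called higher and the groups lay apart in that direction for 4.87%. The high dose raised it 12.8-fold, or by 3.68 on the log2 scale (standard error 0.06, adjusted p = 8.76e-12 by the same test), where 6.22% were called higher and 21.7% lay apart. The doses differed by 1.61 on the log2 scale (standard error 0.19, adjusted p = 0.000497, edgeR), where 3.26% of transcripts were called higher and 16.0% lay apart. MS-158, the lowest low-dose library, had 19177 transcripts detected against at least 23191 in the other 4, and the part of this in its value was not tested. The low-dose call was lost with limma on log2(TPM + 1), at 1.80 (adjusted p = 0.0528).

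At 24 h the cardiomyocyte vehicle libraries held 77.9, 75.6, 67.1, 85.2 and 84.6 CPM and the high-dose libraries 1078, 1081, 1306, 1151 and 1224 CPM. These groups were far apart, and the level with the high dose was 14.9-fold higher, or 3.89 on the log2 scale (standard error 0.08, adjusted p = 1.91e-10, edgeR). This difference was the 30th from the top of 17286 transcripts, of which 6.01% were called higher and 12.9% lay apart. The low-dose libraries were uneven, at 488, 175.5, 605, 54.8 and 519.8 CPM. MS-172 held 175.5 CPM, and MS-174, at 54.8 CPM, was under all vehicle libraries. The low-dose difference of 2.36 on the log2 scale (standard error 0.49) did not pass the test (adjusted p = 0.206, edgeR). In that comparison 0.00% of transcripts were called by edgeR and 2028 of 16998 had an unadjusted p under 0.05, while DESeq2 called 193, this transcript among them, and 1 edgeR fit over all cardiomyocyte groups called it too (adjusted p = 0.000119). Without MS-174 the difference was 2.64 (standard error 0.19, adjusted p = 0.000293, edgeR), and without MS-172 it was 2.45 and not called (adjusted p = 0.0712, edgeR).

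Every high-dose cardiomyocyte library at 24 h stood above every low-dose library of that time, which held for 13.1% of transcripts. The difference of 1.54 on the log2 scale (standard error 0.47) missed the threshold with all libraries (adjusted p = 0.0715, edgeR; 2.11% of transcripts were called higher). With all libraries it did pass with DESeq2 (1.53, adjusted p = 0.00829) and with edgeR in 1 fit over all cardiomyocyte groups (1.54, adjusted p = 0.000749). Without MS-174 it was 1.25 and passed (standard error 0.19, adjusted p = 0.00595, edgeR). Other transcripts also differed between these low-dose libraries. Over 1038 transcripts called higher with the high dose at 24 h, this transcript left out, the median difference from the vehicle mean in log2 CPM was 0.28, 0.34 and 0.30 in MS-171, MS-173 and MS-175. It was -0.07 in MS-174 and -0.53 in MS-172, the libraries with the least of ENSRNOT00000017174. The order differed, since MS-172 was lower by this median but held 175.5 CPM of ENSRNOT00000017174, against 54.8 CPM in MS-174. MS-172 thus stood above all vehicle libraries of its time for ENSRNOT00000017174. MS-172 had 16942 transcripts detected, against 21248 in MS-174 and at least 21774 in the other 3. In the high-dose group at 24 h, MS-178 had the fewest detected, 17678, and the highest level of ENSRNOT00000017174, 1306 CPM. What part either measure has in the value of this transcript was not tested.

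Between the times, the cardiomyocyte effect at 24 h minus that at 9 h was 0.29 on the log2 scale for the low dose (standard error 0.44, adjusted p = 0.978) and 0.23 for the high dose (standard error 0.44, adjusted p = 0.91), both from an interaction contrast in edgeR over all 6 groups. With a library left out the low-dose value ran from 0.09 (without MS-173) to 0.57 (without MS-174), and it was -0.23 with limma on log2(TPM + 1). Neither difference was detectable against errors of this size, in contrasts where 1.03% and 3.76% of transcripts were called. Vehicle cardiomyocytes at 24 h were lower than at 9 h in every library, which held for 13.9% of transcripts. The difference of -0.31 on the log2 scale (standard error 0.06, adjusted p = 0.004, edgeR) passed the p-value threshold but was too small to be called, and it did not pass in 1 fit over all cardiomyocyte groups (adjusted p = 0.692, edgeR). In that comparison 2.68% of transcripts were called lower.

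**Figure D2:**
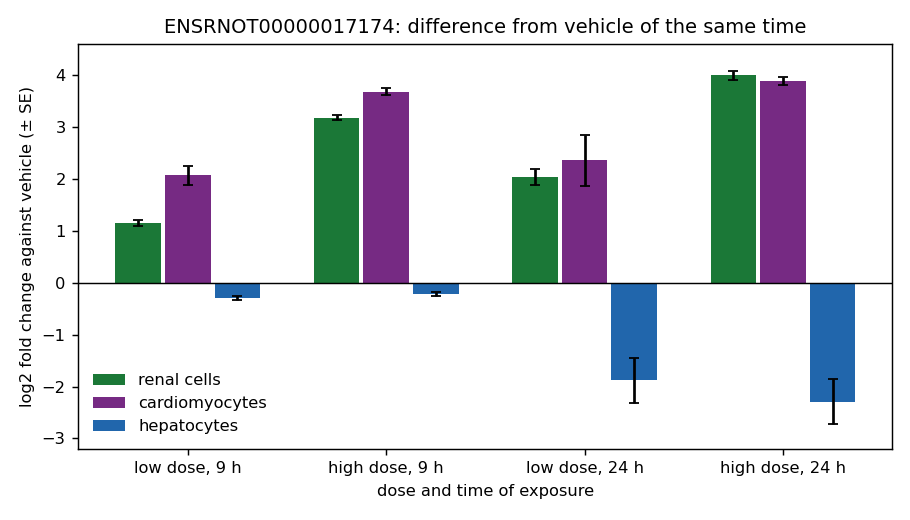
Log2 fold change of ENSRNOT00000017174 against vehicle of the same time (y axis) by dose and time (x axis), for renal cells, cardiomyocytes and hepatocytes; bars are edgeR estimates and error bars their standard errors. Renal cells and cardiomyocytes reach 3.995 and 3.89 with the high dose at 24 h, and all 4 hepatocyte values are negative.

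Treated hepatocyte libraries held less of the transcript than vehicle libraries. At 9 h the vehicle libraries held 196, 210.2, 205, 222 and 227 CPM, the low-dose libraries 166.8, 158.4, 163.96, 177.6 and 183.2 CPM and the high-dose libraries 169.9, 168.9, 173.1, 183.3 and 163.1 CPM. Every treated library was under every vehicle library, which held for 8.60% of transcripts with the low dose and 25.6% with the high dose, and the doses overlapped. The difference from vehicle was -0.30 on the log2 scale with the low dose (standard error 0.04, adjusted p = 0.0013, edgeR) and -0.21 with the high dose (standard error 0.04, adjusted p = 0.00102, edgeR). Both passed the p-value threshold and neither was large enough to be called, where 1.22% and 9.95% of transcripts were called lower. In 1 fit over all hepatocyte groups, which then share 1 estimate of the spread, neither passed (adjusted p = 0.734 and 0.56, edgeR). The doses differed by 0.08 (standard error 0.04), which did not pass the test (adjusted p = 0.156, edgeR; 7.55% of transcripts were called).

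At 24 h the hepatocyte vehicle libraries held 693, 618, 112.3, 708 and 640.4 CPM. The value of 112.3 CPM is that of MS-183, and the other 4 had a mean of 665 ± 42.6 CPM (SD, n = 4). The low-dose libraries held 143.9, 146.8, 151.4, 179.1 and 167.1 CPM and the high-dose libraries 119.9, 127.2, 118.1, 124.2 and 90.4 CPM, so that each treated group overlapped the vehicle group only through MS-183. These vehicle libraries are numbered MS-181 to MS-185, while the other hepatocyte libraries have numbers from MS-91 to MS-120, so that at 24 h exposure and any other feature of that set of libraries cannot be told apart. For ENSRNOT00000017174 the difference from vehicle was -1.88 on the log2 scale with the low dose (standard error 0.43, adjusted p = 0.0111, edgeR) and -2.29 with the high dose (standard error 0.43, adjusted p = 0.00664, edgeR), where 7.89% and 3.72% of transcripts were called lower. Without MS-183 it was -2.14 (standard error 0.08, adjusted p = 6.93e-09, edgeR) and -2.55 (standard error 0.09, adjusted p = 1.82e-08, edgeR). With all libraries, both calls were lost with limma on log2(TPM + 1), at -1.06 and -1.52, with no filter on low counts, at -1.83 and -2.24, and with genomic intervals in the fit, at -1.77 and -2.16, and the low-dose call also with limma on log2(CPM + 0.5), at -1.56. Leaving out MS-183 took the share of transcripts called in either direction from 19.4% to 37.0% with the low dose and from 10.4% to 26.7% with the high dose. The high-dose libraries were all under the low-dose libraries, as for 17.8% of transcripts, by -0.42 on the log2 scale (standard error 0.08, adjusted p = 0.00199, edgeR), which was too small to be called and did not pass in 1 fit over all hepatocyte groups (adjusted p = 0.203, edgeR). In that comparison 8.34% of transcripts were called lower.

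The hepatocyte vehicle level itself differed between the times. It was 212 ± 12.7 CPM at 9 h and 554 ± 249.8 CPM at 24 h (SD, n = 5 in each), a difference of 1.43 on the log2 scale (standard error 0.42, adjusted p = 0.0333, edgeR), where 8.26% of transcripts were called higher and 19.9% in either direction. Without MS-183 it was 1.68 (standard error 0.06, adjusted p = 2.93e-09, edgeR; 35.5% called in either direction), and with any of the other 9 libraries left out it was not called. With all libraries the call was also lost with no filter (1.37), with intervals in the fit (1.34) and with limma on log2(TPM + 1) (0.60) or log2(CPM + 0.5) (1.14). The treated hepatocytes at 24 h, at 157.7 ± 15.0 CPM (low dose) and 115.96 ± 14.7 CPM (high dose; SD, n = 5 in each), stood under the vehicle level of 9 h too. That comparison was not tested, and in it exposure and time in culture cannot be told apart. The effect at 24 h minus that at 9 h was -1.60 on the log2 scale for the low dose (standard error 0.33, adjusted p = 0.000273) and -2.11 for the high dose (standard error 0.33, adjusted p = 1.04e-05), both from the interaction contrast in edgeR, in which 16.1% and 13.7% of transcripts were called lower. With limma on log2(TPM + 1) these were -0.75 and -1.17 and were not called. The vehicle difference and both interaction values rest on the vehicle libraries of 24 h, so that the time in culture, a change of the effect with time and any other feature of that set cannot be told apart.

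**Figure D3:**
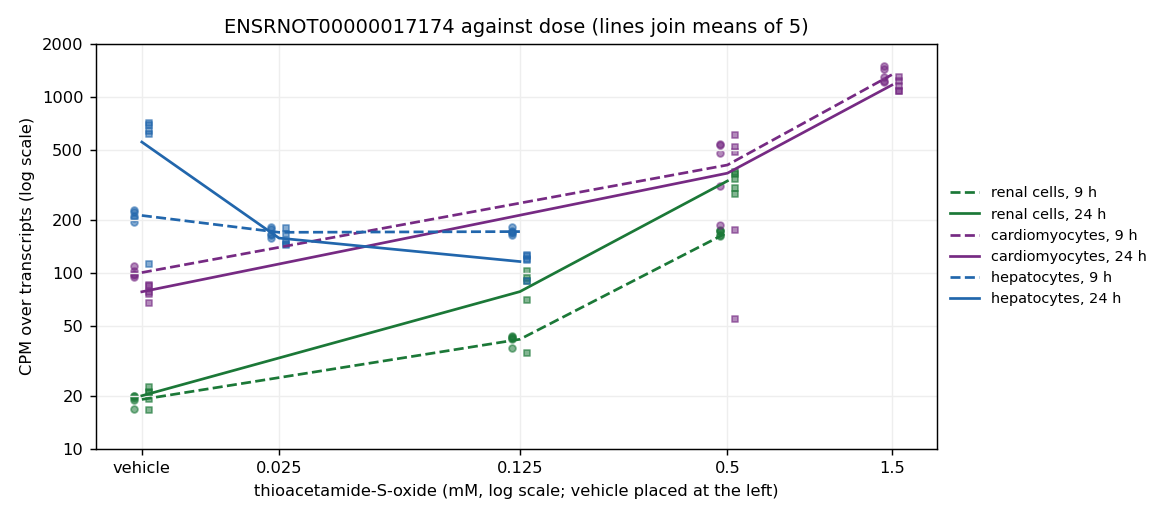
CPM of ENSRNOT00000017174 (y axis, log scale) against the dose of thioacetamide-S-oxide in mM (x axis, log scale, vehicle placed at the left); points are libraries and lines join the means of 5, dashed for 9 h and solid for 24 h. Mean levels go up with dose in renal cells, from 20.02 to 333 CPM at 24 h, and in cardiomyocytes, from 100.4 to 1338 CPM at 9 h, and stand below vehicle at both doses in hepatocytes.

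Some doses were shared between cell types. At 0.5 mM, renal libraries held 162.9 to 175.6 CPM at 9 h and 282 to 374 CPM at 24 h. Cardiomyocyte libraries at that dose held 188 to 539.8 CPM and 54.8 to 605 CPM. At 0.125 mM, renal libraries held 37.4 to 43.8 CPM at 9 h and 35.1 to 102.3 CPM at 24 h, and hepatocyte libraries 163.1 to 183.3 CPM and 90.4 to 127.2 CPM. These values were not tested between cell types, because the renal cells were used for the choice.

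Set in order of mean CPM, the 18 conditions spanned a 70.1-fold range. Cardiomyocytes with the high dose were on top, with 1338 ± 125.35 CPM at 9 h and 1168 ± 97.7 CPM at 24 h (SD, n = 5 in each), and their values overlapped. Then came hepatocyte vehicle cultures at 24 h (554 CPM), low-dose cardiomyocytes at 9 and 24 h (410.3 and 369 CPM) and high-dose renal cells at 24 h (333 CPM), each overlapping the next, the first of them only through MS-183. Hepatocyte vehicle cultures at 9 h (212 CPM) stood clear of both neighbours in this order. Through the lowest libraries of those groups, they lay within the range of low-dose cardiomyocytes at both times and of hepatocyte vehicle cultures at 24 h. High-dose and low-dose hepatocytes at 9 h, high-dose renal cells at 9 h and low-dose hepatocytes at 24 h had means from 171.7 down to 157.7 CPM, and each overlapped the next. High-dose hepatocytes at 24 h (115.96 CPM), cardiomyocyte vehicle cultures at 9 h (100.4 CPM), low-dose renal cells at 24 h (78.2 CPM) and cardiomyocyte vehicle cultures at 24 h (78.1 CPM) also ran into each other. Low-dose renal cells at 9 h (41.9 CPM) stood clear of both neighbours in this order, though within the range of low-dose renal cells at 24 h, and the renal vehicle groups, at 20.02 and 19.1 CPM, overlapped at the bottom. Of the 17 pairs of neighbours, 11 overlapped.

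On the TPM scale, which corrects for length and so allows a comparison between transcripts, the level was 17.8 ± 1.28 TPM in renal vehicle cultures at 9 h and 314 ± 37.2 TPM in high-dose renal cells at 24 h (SD, n = 5 in each). By mean TPM the transcript stood at place 6539 among all transcripts in the former and at place 422 in the latter. In high-dose cardiomyocytes at 9 h it reached 1246 ± 131.02 TPM (SD, n = 5) and place 140, against place 1449 in their vehicle cultures. In hepatocytes it lay at place 799 with vehicle and 969 with the high dose at 9 h, and at place 278 with vehicle and 1400 with the high dose at 24 h. The order of the conditions by TPM matched that by CPM in 14 of 18 places.

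Transcripts were also ranked by how like their profile was to that of ENSRNOT00000017174. Among 17554 transcripts with a mean of at least 1 CPM, the highest Pearson r with it over the 18 condition means of log2(CPM + 0.5) was 0.84, for ENSRNOT00000084567, followed by ENSRNOT00000027616 (0.83), ENSRNOT00000010414 (0.83), ENSRNOT00000092355 (0.81) and ENSRNOT00000078737 (0.81). The values are a description, and the list depends on the measure, since 0 of these 5 were among the top 5 by Spearman's rho and 2 were over the 90 single libraries. ENSRNOT00000084567 had 4.75 CPM in renal vehicle cultures at 9 h, 17.8 CPM with the high dose at 9 h and 73.3 CPM in high-dose cardiomyocytes at 9 h. In hepatocytes at 24 h its mean was higher with the high dose (21.8 CPM) than with vehicle (12.8 CPM), where ENSRNOT00000017174 was lower. ENSRNOT00000010414 ranged only from 14.7 to 27.7 CPM over all conditions. ENSRNOT00000092355 was near the floor in renal cells, with a mean of at most 0.40 CPM in any renal group. Its renal mean at 9 h was 0.15 CPM with vehicle and 0.098 CPM with the high dose, and at 24 h 0.12 and 0.40 CPM.

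**Figure D4:**
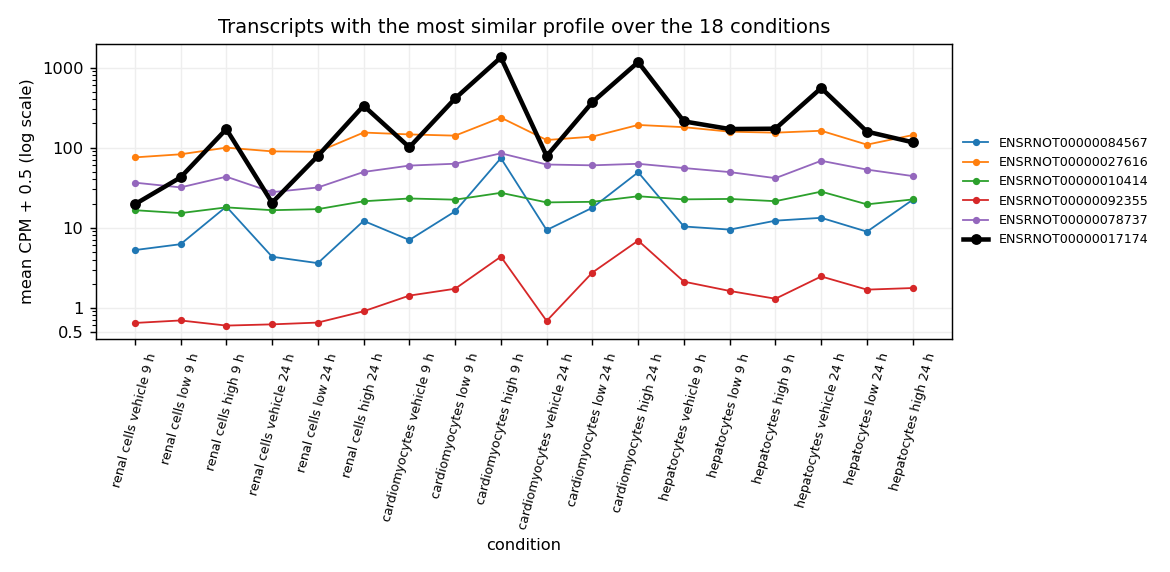
Mean CPM + 0.5 (y axis, log scale) over the 18 conditions (x axis) for ENSRNOT00000017174 (black) and the 5 transcripts with the highest correlation with it. The black line spans means of 19.1 to 1338 CPM, while ENSRNOT00000027616 spans 74.9 to 236 CPM and ENSRNOT00000010414 lies nearly flat.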

How the data were processed

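RNA from 90 libraries of cultured rat cells was sequenced by the study as paired reads of poly-A-enriched stranded libraries. The authors pseudo-aligned the reads to the Ensembl Rnor_6.0 transcriptome with Kallisto (kallisto 0.42.4 in the submitters' processing notes) and deposited, for each library, the estimated count and the TPM of each target, with its length. The 25095 genomic intervals among the 65166 targets were left out of tests unless stated. Groups came from the sample labels. CPM was computed over the 40071 transcripts. For tests, estimated counts were rounded, and edgeR 4.0.16 under R 4.3.3 was fitted to each pair of groups (filterByExpr, TMM factors, glmQLFit, glmQLFTest), adjusting over all transcripts tested. The standard error is the log2 fold change divided by the square root of F. Differences between times were interaction contrasts over the 6 groups of a cell type. The study itself used Sleuth, which was not run here. Functions were tested on simulated data. Alternatives were DESeq2 1.42.0, upper-quartile factors, no filter beyond 1 count, 1 fit per cell type, limma 3.58.1 on log2(TPM + 1) or log2(CPM + 0.5), intervals in the fit, and each library left out. Transcripts named beside ENSRNOT00000017174 are the 5 with the highest Pearson r over the 18 condition means, among those with a mean of at least 1 CPM. The transcript and the rules were chosen with earlier results of these data known.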

Additional observations from a re-analysis of the deposited data

Results flagged for a closer look

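Among the 18 groups of 5 libraries, 3 had a library far from the other 4 in CPM of ENSRNOT00000017174 by Dixon's criterion, where chance gives about 0.9. These were MS-183 in hepatocyte vehicle cultures at 24 h, with 112.3 CPM, MS-120 in high-dose hepatocytes at 24 h, with 90.4 CPM, and MS-126 in low-dose renal cells at 9 h, with 37.4 CPM, each the lowest of its group.

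In hepatocytes the difference from vehicle at 24 h minus that at 9 h was -1.60 on the log2 scale for the low dose and -2.11 for the high dose, by a tested interaction. Both rest on the vehicle libraries of 24 h, MS-181 to MS-185, which are numbered apart from the other hepatocyte libraries. An effect that differs between the times and a feature of that set cannot be told apart, which also holds for the hepatocyte differences at 24 h given next.

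Every treated hepatocyte library lay under its vehicle mean in log2 CPM, while every treated renal library, and every treated cardiomyocyte library apart from MS-174, lay above its own. The log2 fold change in renal cells minus that in hepatocytes was, at 9 h, 1.445 with the low and 3.40 with the high dose, and at 24 h 3.91 and 6.29. For cardiomyocytes minus hepatocytes it was, at 9 h, 2.36 with the low and 3.90 with the high dose, and at 24 h 6.19 with the high dose. These differences between cell types were not tested, and the doses differ between the cell types. Those with renal cells contain the rise for which the transcript was chosen, so a gap there was partly set by the choice.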

How the results depend on the processing

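All 49 renal values under alternatives other than leaving out a library kept their sign and moved by less than 1 SD of log2 CPM between the libraries of a group, pooled over both groups. Some moved by more than their standard error, as with limma on log2(TPM + 1) at 24 h, which gave 1.71 for low dose against vehicle and 2.28 for high against low dose, and with limma on log2(CPM + 0.5), which gave 0.06 for vehicle at 24 h against 9 h. With log2(TPM + 1) in limma, where MS-183 stood at 26.5 TPM, the call in hepatocytes at 24 h was lost at the low dose (-1.06) and the high dose (-1.52), as were those of the vehicle difference between times (0.60), of the 2 hepatocyte interactions (-0.75 and -1.17) and of cardiomyocytes at the low dose at 9 h (1.80, adjusted p = 0.0528). The high against low dose in hepatocytes at 9 h (-0.0403) and the low-dose interaction in cardiomyocytes (-0.23), neither of them called, changed sign. With log2(CPM + 0.5) in limma, the call was lost for hepatocytes at the low dose at 24 h (-1.56) and the vehicle difference (1.14). With no filter, the 3 hepatocyte calls at 24 h were lost (-1.83 and -2.24 at the low and high dose, 1.37 for vehicle), as with intervals in the fit (-1.77, -2.16 and 1.34). DESeq2 and 1 fit per cell type called cardiomyocytes at 24 h at the low dose (2.36 and 2.355) and at the high against the low dose (1.53 and 1.54). With 1 fit per cell type, 4 differences that passed the p-value threshold but were too small to be called no longer passed it, with adjusted p of 0.734 (low) and 0.56 (high) for the doses against vehicle in hepatocytes at 9 h, 0.203 for their high against low dose at 24 h and 0.692 for vehicle cardiomyocytes. The other alternatives changed no call. The cause was not tested.

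With each library left out, the values ran from 1.33 to 1.68 for the hepatocyte vehicle difference, called in 1 of 10, from 2.16 to 2.64 for cardiomyocytes at the low dose at 24 h and from 1.25 to 1.74 for high against low dose there, each called only without MS-174. No other call changed.

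The number of transcripts called moved by over 1.5 times with DESeq2 in hepatocytes at 24 h (from 3228 to 7946 at the low dose, 1693 to 6247 at the high dose, 3234 to 7942 for vehicle), in cardiomyocytes at the low dose (414 to 778 at 9 h, 0 to 193 at 24 h), at the high against the low dose at 24 h (964 to 1872) and in the interactions (191 to 385 and 700 to 1104), and in low-dose renal cells at 24 h (11 to 72). With no filter the hepatocyte counts at 24 h were 1262, 557 and 1320. Of the 5 transcripts named for likeness, 3 remained with a pseudocount of 0.1, 2 over the 90 libraries and 0 with Spearman's rho. No paired analysis was possible because library numbers are not shared between groups.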
